A study of Homo sapiens with 12 samples.

Results

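The genes described here are 39 genes of protein folding in the endoplasmic reticulum (ER) and of the unfolded protein response, taken by symbol from a deposited table of 60670 genes. They were measured by RNA-seq in MDA-MB-453, an established human breast cancer line of luminal type that carries androgen receptor. Cells grew for 72 h in high-glucose medium with 10% fetal bovine serum. They then received 0.001% ethanol as vehicle or 10 nM dihydrotestosterone (DHT), an androgen, for 6 h, with 6 libraries in each group. The libraries of a group came from successive passages of 1 cell line, per the labels' protocols, so p-values measure the spread between passages of that line. The comparison asked which of these genes androgen changed. The list was drawn up by function, with earlier results of these data known. It holds 9 stress sensors and membrane-bound transcription factors, 11 chaperones and co-chaperones, and 6 disulfide isomerases and reductases. The remaining members are 9 genes of ER-associated degradation (ERAD) and 4 genes of protein entry. In all, 38 of the 39 had enough counts to be tested. DERL3, of the derlin family of ERAD, did not, at 0.635 ± 0.245 CPM (SD, n = 6; CPM is a library's count scaled to a common total) in vehicle and 0.528 ± 0.156 CPM (SD, n = 6) in DHT libraries. Its exons share up to 2715 bases with SMARCB1 on the opposite strand, and no source at hand states how strand was counted, so its level is uncertain.

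Secreted and membrane proteins enter the ER through the SEC61 channel, lose their signal peptide, and fold with the help of the chaperone BiP (HSPA5), the lectin chaperones calnexin and calreticulin, and disulfide isomerases. Proteins that do not fold are passed back to the cytosol and degraded. When unfolded proteins accumulate, the sensors IRE1 (ERN1), PERK (EIF2AK3) and ATF6 act. IRE1 splices the mRNA of XBP1, PERK slows translation, and ATF6 is cut in the Golgi to free a transcription factor, as are the related CREB3 proteins. XBP1 and ATF6 then raise genes of folding and degradation. Androgen receptor is a steroid-activated transcription factor, and luminal breast epithelium is a secretory tissue.

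The sites through which ATF6 and XBP1 are known to act on genes of this kind are short. They were searched by exact letters near listed starts, so a member without a match may still be a target. Promoters of RefSeq (GRCh38.p14, 250 bases before to 50 after each listed start) were at hand for 36 of the 39 members. The ER stress response element (ERSE) was searched as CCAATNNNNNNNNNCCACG on both strands. It lay in 7 of the 36 members (19.4%), namely HSPA5, HSP90B1, CALR, CANX, CRELD2, PDIA6 and XBP1. Among all 35116 promoters it lay in 27. Counted by gene symbol, as the members are, that is 25 of 27305 (0.0916%). ERSE-II, searched as ATTGGNCCACG, lay in HERPUD1, HYOU1 and SDF2L1 (3 of 36, 8.33%) and in 19 of all gene symbols (0.0696%). The UPRE, searched as TGACGTGG, lay in DNAJC10 and HYOU1, against 0.927% of all gene symbols, and the UPRE of HYOU1 overlaps 1 of its ERSE-II sites. The element was defined in genes of this kind, so its share among the members is no finding of these data. The windows below run 5′ to 3′ on the strand that carries the element, which is in capitals, with 15 bases on each side.
HSPA5 (chr9:125241376-125241424, minus strand): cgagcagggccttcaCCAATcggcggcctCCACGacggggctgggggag
HSP90B1 (chr12:103930306-103930354, minus strand): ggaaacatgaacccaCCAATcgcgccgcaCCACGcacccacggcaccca
CALR (chr19:12938369-12938417, minus strand): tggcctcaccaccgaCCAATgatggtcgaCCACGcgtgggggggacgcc
PDIA6 (chr2:10812838-10812886, minus strand): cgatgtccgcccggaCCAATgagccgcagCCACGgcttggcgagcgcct
XBP1 (chr22:28800588-28800636, minus strand): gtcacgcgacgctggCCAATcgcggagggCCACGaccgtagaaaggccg
HERPUD1 (chr16:56932010-56932050, plus strand): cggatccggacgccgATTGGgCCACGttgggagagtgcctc
HYOU1 (chr11:119057259-119057299, plus strand): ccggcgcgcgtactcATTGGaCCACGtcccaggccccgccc
SDF2L1 (chr22:21642099-21642139, minus strand): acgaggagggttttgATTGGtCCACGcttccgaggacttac

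**Figure D1:**
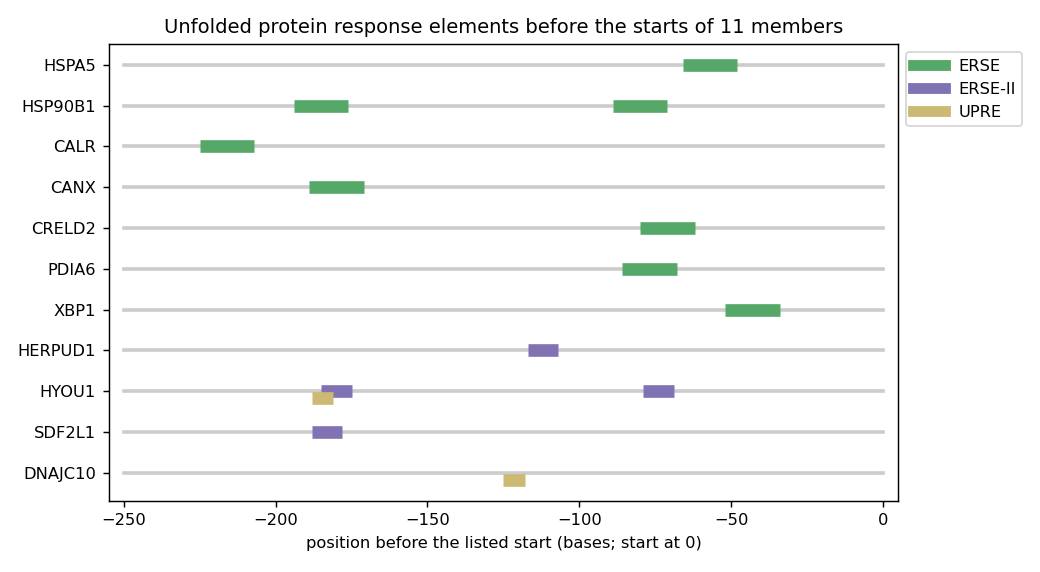
Position of the ERSE, ERSE-II and UPRE matches (coloured bars) in the 250 bases before a listed RefSeq start, with bases before the start on the x axis and 11 members on the y axis. HSP90B1 holds 2 ERSE matches and HYOU1 holds 2 ERSE-II matches, and the match of XBP1 ends 34 bases before its start.

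A full androgen response element, searched as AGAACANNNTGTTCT on both strands, lay in 1 of the 35116 promoters and in no member. Its first 6 bases, AGAACA, lay in 17.5% of all gene symbols with a promoter and in 1 member, CREB3L2. These matches describe letters in a 300-base window only. Of the 36 members with a promoter, 23 had a listed start within 100 bases of the start of the gene in the deposited table. Within 1000 bases there were 31. For the rest, the nearest listed start lay inside the gene by 3317 bases for DNAJB11, 5492 for PDIA6, 17497 for CREB3L1, 19799 for CANX and 34247 for SSR1. The windows of those genes do not cover the outer start. The ERSE matches of PDIA6 and CANX lie before starts 25192 and 20339 bases inside their genes.

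Libraries held 4345939 (vehicle 6) to 25678380 (DHT 2) counts. FKBP5, an established androgen target, rose from 82.4 ± 15.2 to 350 ± 63.8 CPM (SD, n = 6 each; log2 fold change 2.09, adjusted p = 6.79e-06), in keeping with the labels. All 9 luminal markers fixed for the line had vehicle means from 276 to 1479 CPM, while ESR1 and PGR, the estrogen and progesterone receptor genes, had vehicle means of 0.413 and 0.317 CPM. Both libraries numbered 2 stood apart on the first principal component (51.1% of the variance), at 83.8 (vehicle) and 77.4 (DHT) against -32.3 to 23.3 for the other 10. Vehicle 5 stood apart on the second component (15.7%), at -50 against -21.2 to 23.4. Markers of leukocytes and of endothelial cells, 4 each, all had vehicle means under 1 CPM. Of 5 plasma cell markers only MZB1, itself an ER co-chaperone, reached 1 CPM (31.1 ± 8.999 in vehicle, SD, n = 6), and POU2AF1 was at 0 in every library. Summed fibroblast markers (4 of 6 at 1 CPM or more) ran from 76.4 to 110 CPM in vehicle libraries. In DHT libraries they ran from 59.9 to 75.8 CPM, without overlap. Most of that sum was COL1A1, with a vehicle mean of 79.9 CPM against at most 4.52 CPM for any other of these markers. On its own COL1A1 overlapped between groups (log2 fold change -0.36, adjusted p = 0.167 in edgeR's test). The part of these markers in the results below was not tested. Bulk RNA cannot tell fewer expressing cells from less RNA per cell.

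Most of the folding machinery listed did not pass the test under DHT. ERN1, which encodes the sensor IRE1, and PDIA5, a disulfide isomerase, rose 1.85-fold and 1.43-fold, and CREB3L1, a membrane-bound factor of secretory cells, fell by 1.21 on the log2 scale. Thus 2 of 38 tested members (5.26%) passed upward and 1 (2.63%) downward at an adjusted p under 0.05 in edgeR's quasi-likelihood test. Over all 16355 genes tested, 1.96% passed upward and 0.88% downward. The members' shares rest on 2 genes and 1 gene, too few to be read as above that background. At p under 0.05 without adjustment, edgeR placed 2 members higher (6.59% of all genes) and 2 lower (5.41% of all genes), the latter being CREB3L1 and CREB3L4. Library values did not overlap between groups for 1 member upward, PDIA5 (2.28% of all genes), and 1 downward, CREB3L1 (0.991% of all genes). The median log2 fold change was -0.06 over the members and -0.05 over all genes tested. Of the members, 11 had a value above 0 and 27 below it, against 6830 and 9525 of all genes. For the 35 members that did not pass, every 95% interval lay within a 2-fold change either way, and for 25 it lay within 1.5-fold.

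**Figure D2:**
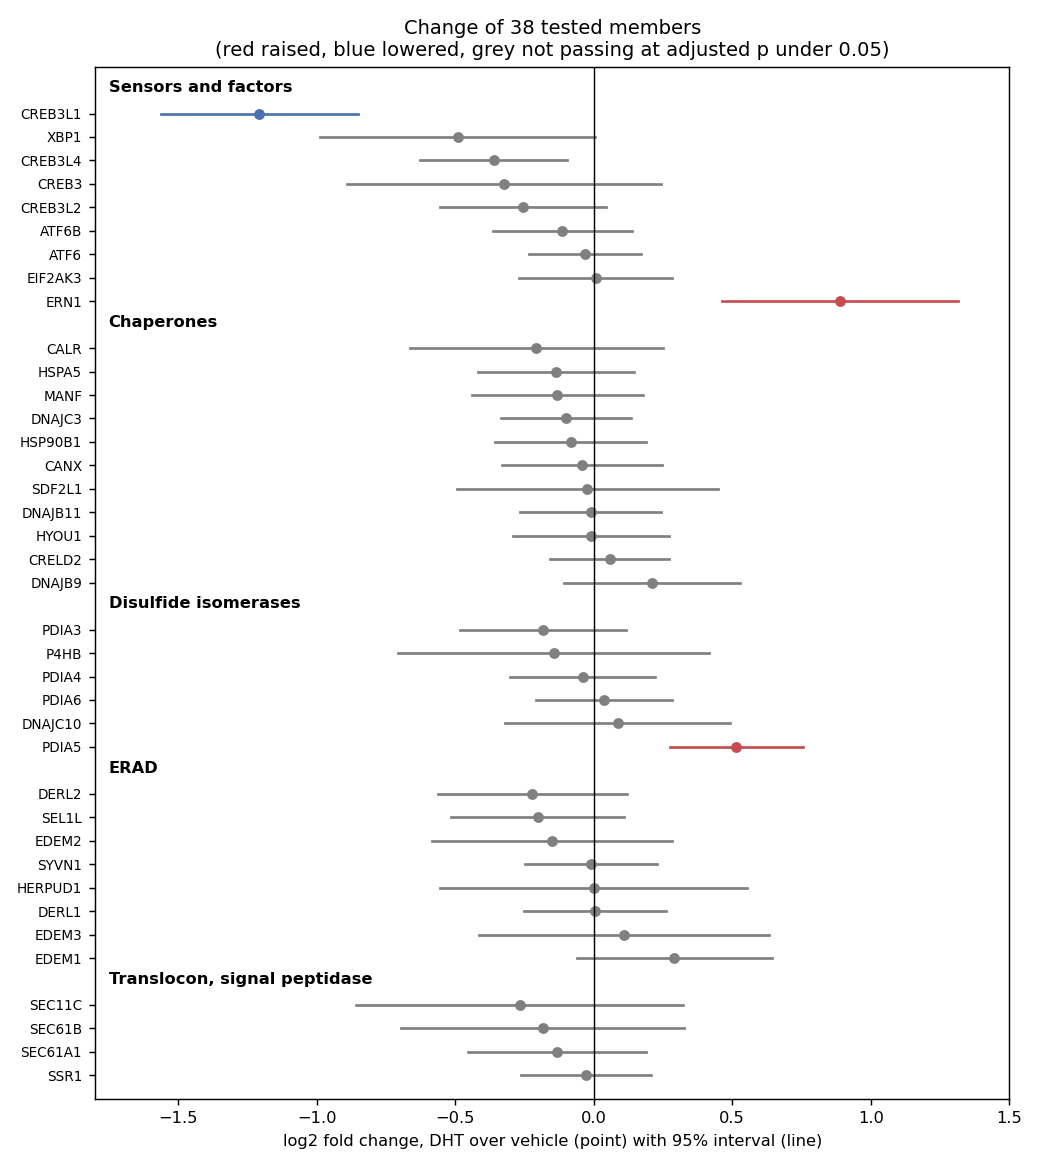
Log2 fold change, DHT over vehicle, of 38 tested members (points) with 95% intervals (lines) on the x axis, by group on the y axis, 6 libraries in each arm. The intervals of ERN1 and PDIA5 lie above 0 and that of CREB3L1 lies below it. The other 35 did not pass at an adjusted p under 0.05, among them CREB3L4, whose interval also lies below 0.

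Among the sensors and membrane-bound factors 1 of 9 passed upward, 1 downward and 7 did not pass, with a median log2 fold change of -0.26 and a range from -1.21 to 0.89. ERN1 (ENSG00000178607, chr17:64039142-64130819, minus strand on GRCh38) encodes the kinase and endonuclease that splices XBP1 mRNA. Its vehicle libraries ran from 23.7 CPM (vehicle 5) through a median of 35.8 to 45.9 CPM (vehicle 1). DHT libraries ran from 37.3 CPM (DHT 2) through a median of 66.2 to 83.3 CPM (DHT 6). The groups overlapped through DHT 2, which lay below vehicle 1, while the other 5 DHT libraries, from 54.7 CPM up, lay above every vehicle library. Means were 34.2 ± 7.95 and 63.4 ± 16.3 CPM (SD, n = 6 each). On the log2 scale ERN1 rose by 0.89 (SE 0.20, adjusted p = 0.0268). The call was lost with each of 7 single libraries left out, vehicle 3, 4 or 6 or DHT 1, 3, 5 or 6 (adjusted p = 0.0515 to 0.0720), and with scaling by library totals alone (adjusted p = 0.0808), while the log2 fold change over those leave-outs stayed between 0.80 and 0.91.

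CREB3L1 (ENSG00000157613, chr11:46277662-46321409, plus strand on GRCh38), also called OASIS, is an ER membrane protein that is cut to free a transcription factor for collagen and secretory genes. Vehicle libraries ran from 11.04 CPM (vehicle 3) through a median of 18.1 to 19.8 CPM, and apart from vehicle 3 they lay at 17.0 CPM or more. DHT libraries ran from 5.96 through a median of 6.89 to 9.33 CPM, all below the lowest vehicle library. Means were 17.2 ± 3.13 and 7.44 ± 1.36 CPM (SD, n = 6 each). The log2 fold change was -1.21 (SE 0.17, adjusted p = 0.000972), and the gene passed in all 20 other settings tried, with log2 fold changes from -1.31 to -1.13. COL1A1, which CREB3L1 is known to activate in bone, was at 79.9 ± 13.8 and 62.1 ± 5.79 CPM (SD, n = 6 each) and did not pass (log2 fold change -0.36, adjusted p = 0.167).

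XBP1 (chr22:28794555-28800597, minus strand on GRCh38), the substrate of IRE1 and a factor for folding and ERAD genes, held the highest level per length of the list. Vehicle libraries ran from 2865.5 CPM through a median of 3474 to 6399.5 CPM, and DHT libraries from 2162 through a median of 2519 to 4262 CPM. Vehicle 2 and DHT 2 were the highest of their groups, and the groups overlapped. The log2 fold change of -0.49 (SE 0.23, 95% interval -0.99 to 0.00) did not pass (adjusted p = 0.424). Without both libraries numbered 2, the value was -0.45 and passed (adjusted p = 0.0442). XBP1 also passed with the replicate number as a block (-0.47, adjusted p = 0.0126), though the labels do not say that a number marks a pair. A count per gene sums the spliced and the unspliced form of XBP1 mRNA, so the activity of IRE1 was not measured here.

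CREB3L4, a CREB3-type factor found in secretory epithelia such as prostate, ran from 266 through a median of 322 to 388 CPM in vehicle and from 235 through 245 to 310 CPM in DHT libraries. Every DHT library lay below the vehicle median, but DHT 2 lay within the vehicle range. In edgeR's fit the log2 fold change was -0.36 (SE 0.12, adjusted p = 0.190), and without both libraries numbered 2 it was -0.37 and passed (adjusted p = 0.0410). With those libraries out, 2 members passed upward and 3 downward, among 608 raised and 312 lowered genes in all. CREB3 itself was at 99.6 ± 41.3 and 79.6 ± 32.4 CPM (SD, n = 6 each; log2 fold change -0.32, adjusted p = 0.776), with vehicle 2 (181 CPM) and DHT 2 (145 CPM) far above the rest, which ran from 58.2 to 104.5 CPM. The log2 fold change of CREB3 was -0.068 without vehicle 2 and -0.59 without DHT 2. With the replicate number as a block, which the labels do not establish as a pair, CREB3 (-0.32, adjusted p = 0.0372) and CREB3L4 (-0.35, adjusted p = 0.0416) passed downward. Exons of CREB3 overlap GBA2 and those of CREB3L4 overlap JTB and SLC39A1 on the opposite strand, so their counts are uncertain by that share. For CREB3L2, a close relative of CREB3L1, the change was -0.26 on the log2 scale (adjusted p = 0.545).

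**Figure D3:**
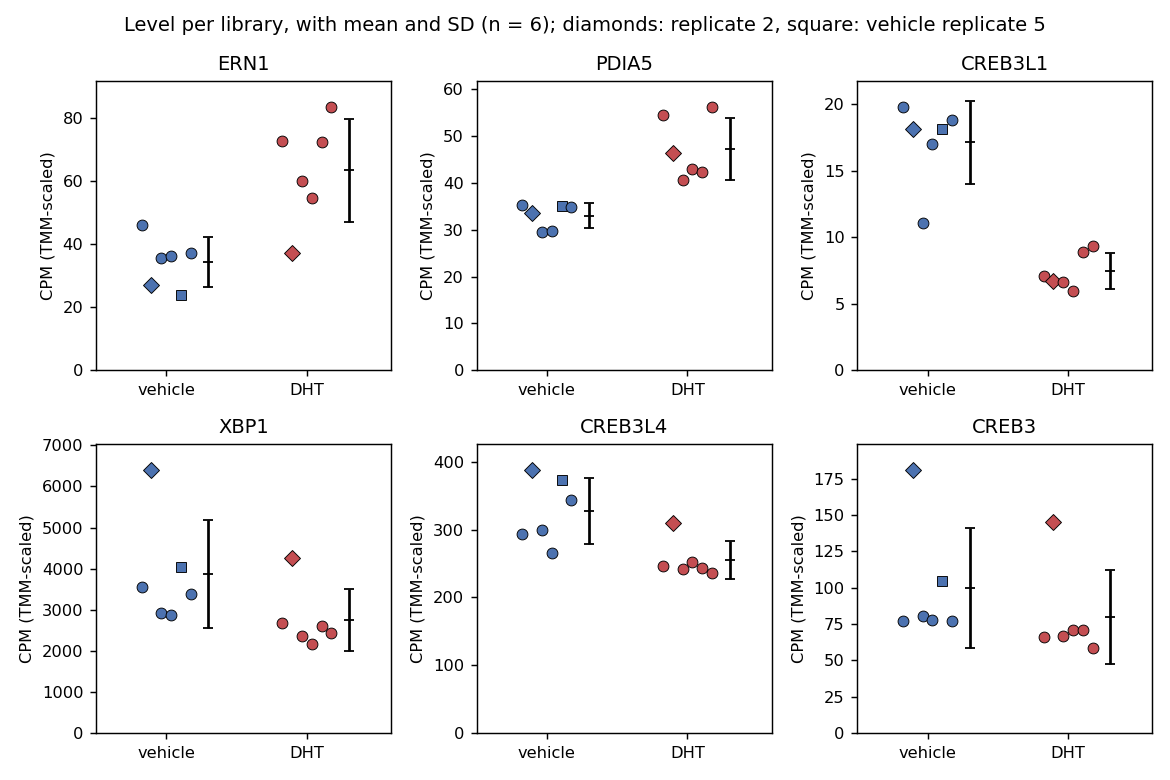
CPM of ERN1, PDIA5, CREB3L1, XBP1, CREB3L4 and CREB3 in each library, on y axes that start at 0, with vehicle in blue, DHT in red, and the mean with its SD (n = 6) as a black bar. Diamonds are the libraries numbered 2 and the square is vehicle 5; CREB3L1 and PDIA5 do not overlap between groups, while the diamonds lie highest in both groups for XBP1, CREB3L4 and CREB3.

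The other stress sensors did not pass, and their intervals were narrow. EIF2AK3, the PERK gene, had means of 36.8 ± 5.66 and 37.0 ± 4.68 CPM (SD, n = 6 each; log2 fold change 0.01, 95% interval -0.27 to 0.28). ATF6 was at 71.3 ± 6.72 and 69.7 ± 4.73 CPM (log2 fold change -0.03, 95% interval -0.24 to 0.17). ATF6B, its paralog, had a log2 fold change of -0.11 (95% interval -0.36 to 0.14). Changes of 1.5-fold either way lie outside all of these intervals.

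Among the disulfide isomerases and reductases, which form and shuffle disulfide bonds, 1 of 6 passed upward and none downward, and the range ran from -0.18 to 0.52 around a median near 0 (-0.00099). PDIA5 (ENSG00000065485, chr3:123067025-123225227, plus strand on GRCh38) is a protein disulfide isomerase known to act on the disulfide bonds of ATF6. It ran from 29.6 CPM (vehicle 3) through a median of 34.2 to 35.3 CPM (vehicle 1). DHT libraries ran from 40.6 CPM (DHT 3) through a median of 44.7 to 56.2 CPM (DHT 6), every one above the highest vehicle library. Means were 33.0 ± 2.65 and 47.2 ± 6.64 CPM (SD, n = 6 each). On the log2 scale PDIA5 rose by 0.52 (SE 0.11, adjusted p = 0.0222). The call was lost without vehicle 3, vehicle 4, DHT 1 or DHT 6 (adjusted p = 0.0558 to 0.0690) and with no filter on low counts (adjusted p = 0.0626). As ERN1 was lost too without any of those 4 libraries, no member passed upward in those 4 settings. PDIA5 shares 201 exonic bases with SEC22A on the same strand, whose means were 17.6 and 13.8 CPM.

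The bases before the starts of both raised members are shown with CCAAT and CCACG, the outer parts of ERSE, in capitals on either strand. PDIA5 holds the 8-base palindrome CCACGTGG, in which CCACG reads on both strands, and no CCAAT. ERN1 holds 1 CCAAT, read on the opposite strand, and no CCACG, and its listed start lies 675 bases inside the deposited gene. CCAAT lay in 39.7% and CCACG in 42.1% of all gene symbols with a promoter, and each lay in 27 of 36 members (75%). Both sequences are from RefSeq promoters (GRCh38.p14), 250 bases each, on the strand of the gene.
PDIA5 (chr3:123066775-123067024, plus strand): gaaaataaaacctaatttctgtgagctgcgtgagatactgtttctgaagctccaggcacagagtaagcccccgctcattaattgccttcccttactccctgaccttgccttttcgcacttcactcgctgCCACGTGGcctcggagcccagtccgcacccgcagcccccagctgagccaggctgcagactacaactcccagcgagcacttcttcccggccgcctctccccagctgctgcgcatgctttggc
ERN1 (chr17:64130145-64130394, minus strand): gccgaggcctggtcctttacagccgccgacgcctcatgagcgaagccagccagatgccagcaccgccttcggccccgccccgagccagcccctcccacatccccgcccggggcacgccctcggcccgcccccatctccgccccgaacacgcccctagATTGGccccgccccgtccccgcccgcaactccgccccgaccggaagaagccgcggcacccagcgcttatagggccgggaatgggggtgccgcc

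The other 5 members of the group did not pass. P4HB, the founding disulfide isomerase, was at 769 ± 360 and 696 ± 223 CPM (SD, n = 6 each; log2 fold change -0.14), a spread set by vehicle 2 (1496 CPM) and DHT 2 (1148 CPM) against 556 to 717 CPM in the other 10 libraries. PDIA3, which works with calnexin and calreticulin on glycoproteins, had a log2 fold change of -0.18 (95% interval -0.48 to 0.12). Its processed copy PDIA3P1 was counted at 207 ± 31.8 CPM in vehicle (SD, n = 6), so reads of 40 bp may be split between the copies. PDIA6 ran from 130 to 186 CPM in vehicle and from 135 to 172 CPM in DHT libraries, with a log2 fold change of 0.04 (95% interval -0.21 to 0.28). PDIA4 was at -0.04 and DNAJC10, an ER reductase that prepares proteins for ERAD, at 0.09 on the same scale.

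None of the 11 chaperones and co-chaperones passed in either direction with edgeR, DESeq2 or limma-voom, and none had an unadjusted p under 0.05 with edgeR. Their log2 fold changes ran from -0.21 to 0.21 around a median of -0.04. HSPA5, the BiP gene and the usual marker of ER stress, ran from 387 through a median of 438 to 606 CPM in vehicle and from 367 through 415 to 487 CPM in DHT libraries. The groups overlapped, and the log2 fold change was -0.14 (SE 0.13, 95% interval -0.42 to 0.15, adjusted p = 0.833). Its copy HSPA5P1 was counted at 33.4 ± 5.31 CPM in vehicle (SD, n = 6). HSP90B1, which encodes GRP94, was at 748 ± 97.7 and 706 ± 80.3 CPM (SD, n = 6 each; log2 fold change -0.08, 95% interval -0.36 to 0.19).

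CALR (calreticulin) and CANX (calnexin), the lectin chaperones of glycoproteins, had log2 fold changes of -0.21 (95% interval -0.66 to 0.25) and -0.04 (95% interval -0.33 to 0.25). CALR ran from 810 to 998 CPM in 5 DHT libraries and reached 1617 CPM in DHT 2, as vehicle 2 did with 1844 CPM. HYOU1, a large ER chaperone and nucleotide exchange factor, was at 267 ± 39.8 and 266 ± 36.2 CPM (SD, n = 6 each; log2 fold change -0.01, 95% interval -0.29 to 0.27). The J-domain partners of BiP, DNAJB9, DNAJB11 and DNAJC3, had log2 fold changes of 0.21, -0.01 and -0.10, and the DNAJB11 complex partner SDF2L1 had -0.02. MANF and CRELD2, small secreted proteins induced by ER stress, were at -0.13 and 0.06. All 10 members with an ERSE or ERSE-II match lay between -0.49 (XBP1) and 0.06 (CRELD2). None passed with all 12 libraries and group as the only term, while XBP1 passed downward in 3 of the 20 other settings. Over all genes tested 1.96% passed upward and 0.88% downward, so 10 genes are too few to read the lack of calls as a result.

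None of the 8 tested ERAD genes passed either way, with edgeR, DESeq2 or limma-voom, and none had an unadjusted p under 0.05 with edgeR. Log2 fold changes ran from -0.22 to 0.29 around a median of -0.0045. The core of the retrotranslocation complex, the ubiquitin ligase gene SYVN1 (HRD1) and its adaptor SEL1L, had log2 fold changes of -0.01 (95% interval -0.25 to 0.23) and -0.20 (95% interval -0.51 to 0.11). SYVN1 shares exonic bases with FAU and MRPL49, which were at 247 and 194 CPM in vehicle against 58.7 ± 4.64 CPM (SD, n = 6) for SYVN1. HERPUD1, which holds an ERSE-II site and is among the sharply stress-induced ERAD genes, was at 86.4 CPM in both groups (SD 40.4 in vehicle and 28.6 in DHT, n = 6 each). Vehicle 2 (168 CPM) and DHT 2 (144 CPM) lay above the other 10 libraries of HERPUD1, which ran from 62.3 to 80.0 CPM.

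EDEM1, EDEM2 and EDEM3 trim mannose from glycoproteins on their way to degradation. EDEM1 ran from 78.1 through a median of 118 to 141 CPM in vehicle and from 97.7 through 137 to 164 CPM in DHT libraries, with a log2 fold change of 0.29 (95% interval -0.06 to 0.64, adjusted p = 0.572). EDEM2 and EDEM3 had log2 fold changes of -0.15 and 0.11. The derlins, channel-like proteins of retrotranslocation, had -0.22 for DERL2 and 0.01 for DERL1. DERL2 was below the vehicle median in every DHT library, within 20.4 to 23.6 CPM, and vehicle 5 (41.7 CPM) set most of the vehicle spread. Without vehicle 5 the log2 fold change of DERL2 was -0.040.

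None of the 4 genes of protein entry passed either way, with edgeR, DESeq2 or limma-voom, and none had an unadjusted p under 0.05 with edgeR, although all 4 values were below 0 (median log2 fold change -0.16). SEC61A1, the channel subunit, ran from 285 to 507 CPM in vehicle and from 272 to 384 CPM in DHT libraries (log2 fold change -0.13, 95% interval -0.45 to 0.19). SEC61B, a small subunit, had -0.18, the catalytic signal peptidase gene SEC11C had -0.27, and SSR1 of the translocon-associated complex had -0.03, or 0.03 with scaling by library totals alone. SEC11C was at 104 CPM in vehicle 5 and between 27.2 and 40.9 CPM in the other vehicle libraries, and its sign turned to 0.14 without that library. SEC61B was likewise highest in vehicle 5, at 92.9 CPM, and its log2 fold change was 0.00092 without it.

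Levels between genes were compared as CPM per kilobase of exon in the deposited table. XBP1 led with 1276 ± 434 in vehicle and 908 ± 252 in DHT libraries (SD, n = 6 each), 20th of the 16355 genes tested in vehicle. CALR followed with 430.5, then PDIA3 with 165, HSP90B1 with 159, P4HB with 147 and HSPA5 with 117 CPM per kilobase in vehicle. CREB3L4, at 113, was the most abundant CREB3-type factor per length. The 3 members that passed stood near the other end of the list, PDIA5 at 8.12, CREB3L1 at 4.26 and ERN1 at 3.15 CPM per kilobase in vehicle. Under DHT they stood at 11.6, 1.85 and 5.83 CPM per kilobase.

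**Figure D4:**
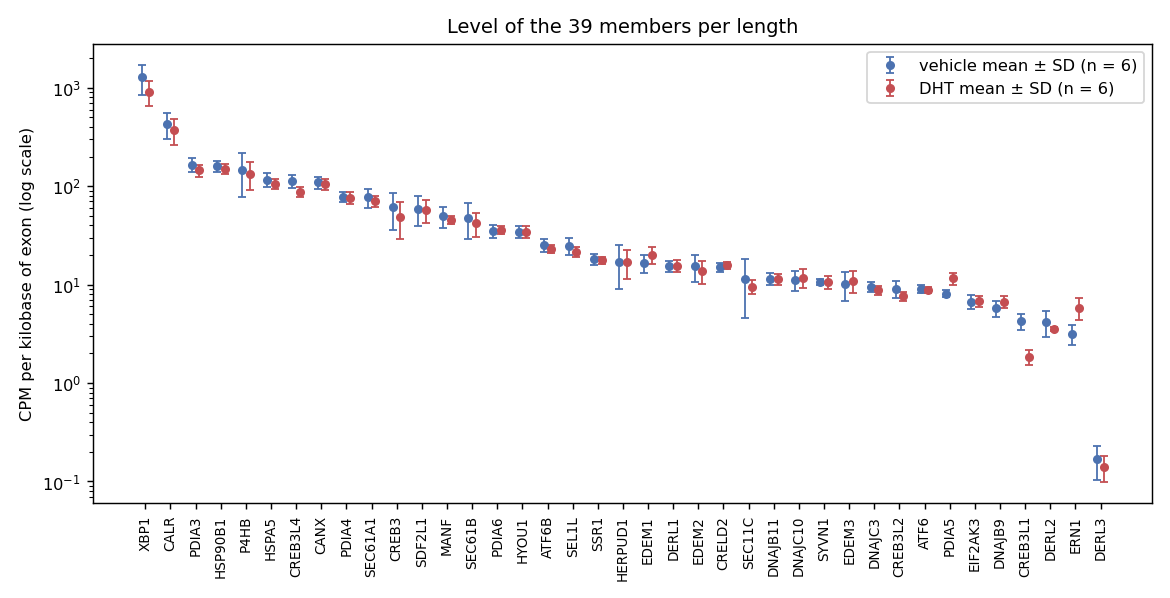
Level of the 39 members as CPM per kilobase of exon on a log axis, mean ± SD of 6 libraries in vehicle (blue) and DHT (red), in the order of the vehicle level. XBP1 leads at 1276 in vehicle, DERL3 is last at 0.167, and ERN1, CREB3L1 and PDIA5 are among the lower members.

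A few libraries stood apart from the rest of their group for a number of members. Vehicle 2 and DHT 2 were both the highest of their groups for 16 of the 38 tested members (42.1%, against 26.6% of all genes) and both the lowest for 5 (13.2%, against 25.5% of all genes). The 16 included XBP1, CREB3, CALR, HSPA5, P4HB and HERPUD1, at 1.88-fold or more the median of the other vehicle libraries for XBP1, CREB3, P4HB, HERPUD1 and EDEM2. The 5 that were lowest were DNAJB11, DNAJC3, DNAJC10, EDEM1 and EDEM3. EDEM3 stood at 37.96 and 46.5 CPM in vehicle 2 and DHT 2, against 58.5 to 108 CPM in the other 10 libraries. Thus relatives such as EDEM2 and EDEM3 moved in opposite ways in those libraries. Vehicle 5 was high for SEC11C (2.81-fold the median of the other vehicle libraries), SEC61B (2.06-fold), DERL2 (1.75-fold) and MANF (1.63-fold). What set these libraries apart was not tested.

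**Figure D5:**
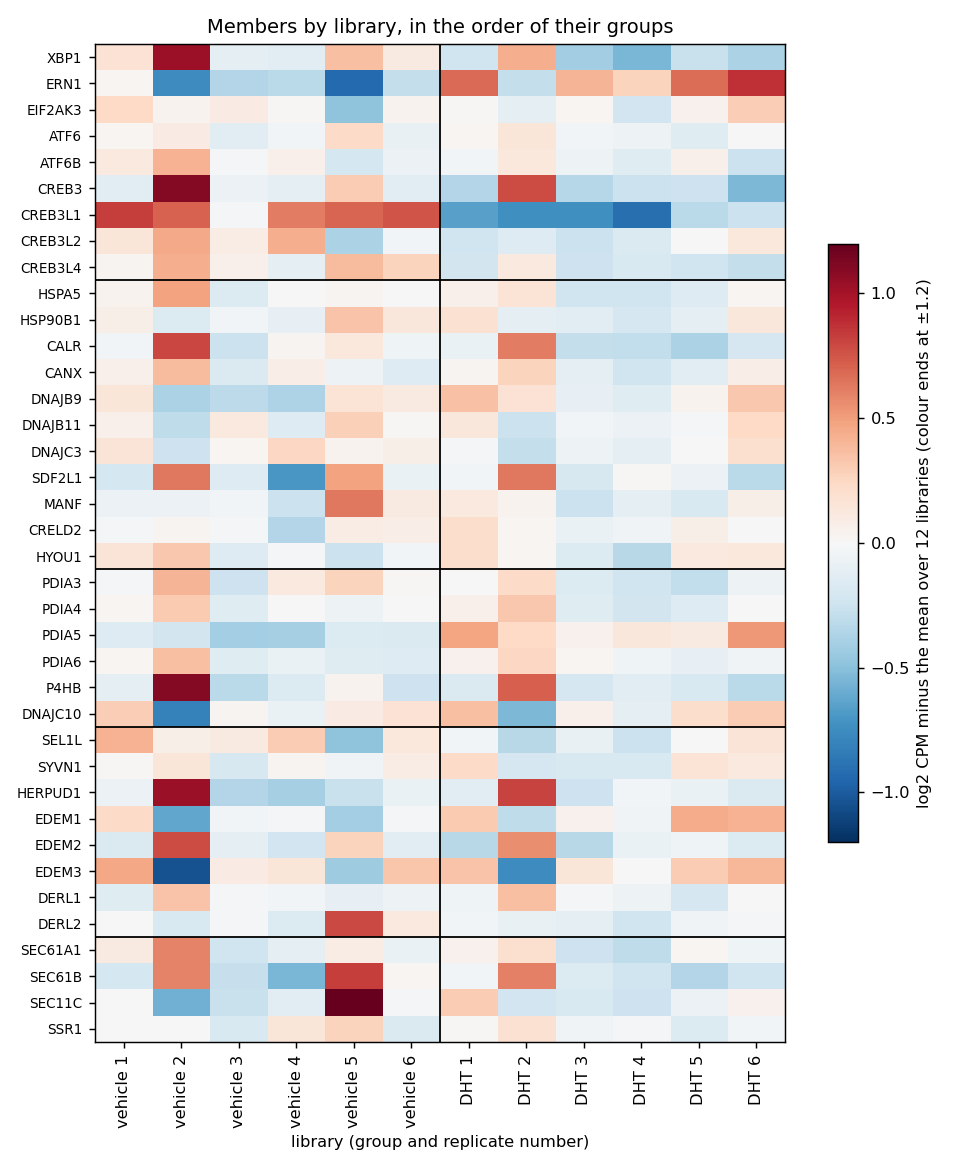
Log2 CPM of each tested member minus its mean over 12 libraries (colour, red higher and blue lower), members in rows by group and libraries in columns, with a vertical line between vehicle and DHT. The columns vehicle 2 and DHT 2 share red rows (CREB3, P4HB, HERPUD1) and blue rows (DNAJC10, EDEM3), and the row of CREB3L1 is blue in every DHT library.

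The wider pathway was read from 171 further genes in 8 lists, of which 162 were tested. Here 1 passed upward and none downward with edgeR, and the median log2 fold change was -0.03. Of all 16355 genes tested, 1.96% passed upward and 0.88% downward. Counting every unadjusted p under 0.05 gave 4 genes above and 4 below vehicle, where 6.59% and 5.41% of all genes were. These counts were not tested against that background. The raised gene was VKORC1L1, which reduces vitamin K and takes part in disulfide formation, in the list of oxidative folding (1 of 22 tested). It ran from 56.4 through a median of 61.2 to 69.8 CPM in vehicle and from 74.6 through 83.3 to 90.04 CPM in DHT libraries, without overlap (log2 fold change 0.39, SE 0.09, adjusted p = 0.0421). The call was lost without any one of vehicle 1, 3 and 6 or of the 6 DHT libraries (adjusted p = 0.0540 to 0.120), with library totals alone (adjusted p = 0.0632) and with no filter on low counts (adjusted p = 0.211). AGR2, a secreted and ER-resident isomerase of mucous and breast epithelium, was chosen after its values were seen. It ran from 362 through a median of 422 to 1227 CPM in vehicle, highest in vehicle 5, and from 164 through 237 to 345 CPM in DHT libraries, all below the vehicle range. Its log2 fold change of -1.17 missed the threshold (SE 0.30, adjusted p = 0.0537). It was -0.78 without vehicle 5, where it passed (adjusted p = 0.0364), as it did without vehicle 2 (-1.25, adjusted p = 0.0339). AGR2 passed in only 6 of the 20 other settings tried, with adjusted p from 0.00453 to 0.137 over them.

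No gene passed among 28 other ERAD genes, 18 of glycan transfer and the calnexin cycle, 19 co-chaperones and prolyl isomerases, 21 of signal recognition and entry, 24 of ER exit and retrieval, 13 of the PERK and ATF4 arm and 18 that activate or damp the sensors. In those 7 lists the median log2 fold changes ran from -0.10 (glycan transfer) to -0.0014 (PERK and ATF4 arm). At an unadjusted p under 0.05 they held 1 gene that was higher, in the PERK and ATF4 arm, and 1 that was lower, among the other ERAD genes. As only 1.96% of all genes tested passed upward and 0.88% downward, a list this small without a passing gene is no result about that list.

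In the authors' deposited table of their own comparison, which lists 14559 genes, 2 of 38 members passed upward and 1 downward at an adjusted p under 0.05, where 2.66% and 1.59% of all its genes did. ERN1 is listed in the authors' deposited table at 0.84 on the log2 scale (adjusted p = 0.00563), PDIA5 0.52 (adjusted p = 0.00870) and CREB3L1 -1.08 (adjusted p = 0.00168). For 32 members the authors' deposited table lists an adjusted p of 1. XBP1 stands there at -0.09, where the fit to the counts gave -0.49.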

How the data were processed

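Counts per gene in 12 libraries, as deposited by the authors, come from STAR alignment and featureCounts (GRCh38), per the submitters' processing notes. In each library 39.6% to 46.7% of values above 0 were fractional (tolerance 0.005), so the deposited values were taken as estimated counts and rounded. Whether poly-A or total RNA was read is given differently in the design text and the protocol. A record broken over 3 lines was left out, and 60400 of 60670 identifiers had a symbol. A log2 fold change, p-value and adjusted p per gene stand in the authors' deposited table of their own comparison, whose model no source at hand states. Its ranking score, per the file headers, was not used.

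Analysis used R 4.3.3. Low genes were dropped by filterByExpr, libraries were scaled by TMM, and groups were tested in edgeR 4.0.16 (quasi-likelihood F-test, group as the only term, Benjamini-Hochberg over 16355 genes, threshold 0.05). Each SE was obtained by dividing a log2 fold change by the root of its F statistic. CPM are counts over TMM-scaled totals. Alternatives used DESeq2 1.42.0, limma 3.58.1 (voom), other scalings, no filter, a replicate block and left-out libraries.

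The members and lists were chosen with earlier results of these data known. All 39 members are named by rule, with up to 2 raised and 2 lowered genes of each further list and FKBP5. Markers were named from a fixed list. Depth sets the worth of 1 count at 0.230 CPM in the shallowest and 0.0389 CPM in the deepest library. Promoters were searched in the RefSeq table of GRCh38.p14.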

Additional observations from a re-analysis of the deposited data

Results flagged for a closer look

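In 26 of 78 pairs of member and group, 1 library lay farther from the other 5 than Dixon's limit for a group of 6 allows. Chance flags about 1 in 20 such pairs, but the members share their libraries and are not independent. In vehicle 2, 10 members were farthest above the others: XBP1 (6399.5 CPM), CREB3 (181 CPM), HSPA5 (606 CPM), CALR (1844 CPM), PDIA4 (315 CPM), PDIA6 (186 CPM), P4HB (1496 CPM), HERPUD1 (168 CPM), DERL1 (135 CPM) and SEC61A1 (507 CPM). In DHT 2, 10 members were: XBP1 (4262 CPM), CREB3 (145 CPM), CREB3L4 (310.2 CPM), CALR (1617 CPM), SDF2L1 (92.6 CPM), P4HB (1148 CPM), HERPUD1 (144 CPM), EDEM2 (39.2 CPM), DERL1 (137 CPM) and SEC61B (79.3 CPM).

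Vehicle 5 lay apart for 4 members, above the others for MANF (157 CPM), DERL2 (41.7 CPM) and SEC11C (104 CPM) and below them for EIF2AK3 (26.2 CPM). Vehicle 3 was low for CREB3L1 (11.04 CPM, next 17.0 CPM) and vehicle 4 was low for CRELD2 (62.2 CPM, next 77.9 CPM).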

How the results depend on the processing

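Depth limits low members such as DERL3. CREB3L1 passed in each of the 20 alternatives, and ERN1 in 12 and PDIA5 in 15 of them. With library totals only or with no low-count filter, 1 member passed upward. Genes passing over the whole table were 514 raised and 264 lowered with DESeq2, 93 lowered with library totals only, 90 lowered with no low-count filter, and 608 raised and 312 lowered without both libraries numbered 2, with 3 members lowered. Without those and vehicle 5, a setting chosen after seeing the data, 1096 were raised and 673 lowered, with 3 members lowered (XBP1 and CREB3L4 added). Leaving out 1 library gave 189 to 434 raised and 86 to 199 lowered genes, and 0 to 2 members raised, 0 without vehicle 3, vehicle 4, DHT 1 or DHT 6.

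Replicate numbers were not taken as pairs, because the labels do not say that a number marks a pair. Same-numbered deviations correlated at 0.515, 0.875, 0.438, 0.259, -0.238 and 0.456 for numbers 1 to 6. Of the 6 vehicle libraries, 3 correlated best with their own number. These values do not settle whether a number marks a pair. With a replicate block, 764 genes were raised and 522 lowered, with 2 members raised and 4 lowered, as XBP1 (-0.47, adjusted p = 0.0126), CREB3L4 (-0.35, adjusted p = 0.0416) and CREB3 (-0.32, adjusted p = 0.0372) joined CREB3L1.

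Of the members' repeated values, 667 kept direction and call, 7 gained a call, 13 lost one and 73 changed sign. The changes of sign fell on 19 members, none of them called in either fit, and the cause was not tested. Log2 fold changes that changed sign were, with library totals only, ATF6 0.028, CANX 0.019, DNAJB11 0.047, SDF2L1 0.050, HYOU1 0.056, PDIA4 0.015, SYVN1 0.059 and SSR1 0.028. With no low-count filter they were DNAJB11 0.0050, SDF2L1 0.0010, HYOU1 0.0060 and SYVN1 0.0049. With limma-voom they were SDF2L1 0.011 and DERL1 -0.00042, and with the replicate block SDF2L1 0.0092. Without both libraries numbered 2 they were HYOU1 0.059 and SYVN1 0.060. Without those and vehicle 5 they were EIF2AK3 -0.066, ATF6 0.012, DNAJB11 0.038, SDF2L1 0.16, HYOU1 0.014, P4HB 0.013, SYVN1 0.055, EDEM3 -0.021, DERL1 -0.0045, SEC61B 0.056 and SEC11C 0.089. With 1 library left out, values that changed sign ran over EIF2AK3 -0.076 to 0.058, ATF6 -0.068 to 0.013, CANX -0.11 to 0.035, DNAJB11 -0.069 to 0.049, SDF2L1 -0.18 to 0.12, MANF -0.19 to 0.011, HYOU1 -0.058 to 0.058, PDIA4 -0.12 to 0.022, PDIA6 -0.014 to 0.12, P4HB -0.35 to 0.16, DNAJC10 -0.033 to 0.18, SYVN1 -0.060 to 0.028, HERPUD1 -0.21 to 0.30, EDEM2 -0.31 to 0.029, EDEM3 -0.037 to 0.24, DERL1 -0.077 to 0.080, SEC61B -0.36 to 0.00092, SEC11C -0.38 to 0.14 and SSR1 -0.073 to 0.027.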
